A study of Mus musculus with 12 samples.

Results

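The genes of the RUNX transcription factors and of their partner proteins were read from assay for transposase-accessible chromatin (ATAC-seq) peaks of brain macrophages sorted from bone marrow chimeric mice. The members were Runx1, Runx2, Runx3, Cbfb, Runx1t1 and Cbfa2t3, and every peak that the deposited annotation assigns to one of these gene names was taken, that is, each peak whose nearest RefSeq start belongs to the gene. This gave 81 of 60288 merged peaks in untreated mice and 72 of 54953 merged peaks after lipopolysaccharide (LPS) challenge. All animals were WT mice of the C57BL/6J strain, irradiated with 950 cGy at 6 weeks of age and given congenic WT bone marrow that carries the CD45.1 allele, and their brains were taken 9 months later (the labels allow 3.5 or 9). Grafted cells (Ly6C/G- CD11b+ CD45.1lo) and host microglia (Ly6C/G- CD11b+ CD45.2lo) were sorted from the same brains. The 4 groups of 3 libraries each were CD45.1 and CD45.2 cells of 3 untreated mice (mice 4, 5 and 6) and CD45.1 and CD45.2 cells of 3 other mice killed 12 h after 2.5 mg/kg LPS (mice 1, 2 and 3). The host cells were in the brain during irradiation and the grafted cells were not, so origin and exposure to radiation cannot be told apart in any comparison of the 2 populations.

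RUNX1, RUNX2 and RUNX3 bind DNA through a shared Runt domain and need the non-DNA-binding partner CBFβ, encoded by Cbfb, for stable binding. RUNX1 is a regulator of blood stem cells and of the myeloid lineage, RUNX2 is best known from bone formation, and RUNX3 from T cells, natural killer cells and tissue-resident leukocytes. RUNX1T1 and CBFA2T3 belong to the ETO family of corepressors, which recruit histone deacetylases and do not bind DNA on their own. Each of the RUNX genes is transcribed from a distal and a proximal promoter.

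The sequences of 8 accessible regions are shown because results turn on them: the start sites of Runx3, distal regions of Runx1t1, Runx1 and Runx2 that were called between grafted cells and host microglia, and an intronic region of Runx1 that was higher with LPS in both populations. They were read from the NCBIM37 (mm9) genome and run 5′ to 3′ along the strand of the gene. Capitals mark exact matches, on either strand, to TGTGGTT (RUNX), GAGGAAG (PU.1), TGANTCA (AP-1) or TTGCNNAA (CEBP). A match is a run of letters and not a shown binding site.
Runx3 distal promoter, chr4:134676410-134676514, plus strand, with 2 RUNX matches: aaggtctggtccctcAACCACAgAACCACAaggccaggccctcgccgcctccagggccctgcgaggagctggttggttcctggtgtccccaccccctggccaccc
Runx3 proximal start, chr4:134708322-134708410, plus strand, bases before the start only, no match: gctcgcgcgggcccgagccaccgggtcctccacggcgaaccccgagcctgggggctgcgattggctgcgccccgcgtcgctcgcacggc
Runx1t1 upstream region, chr4:13630263-13630379, plus strand, with 1 PU.1 match: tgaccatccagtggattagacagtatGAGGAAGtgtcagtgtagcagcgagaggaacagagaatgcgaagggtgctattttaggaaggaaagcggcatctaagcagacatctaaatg
Runx1 upstream region, chr16:92864564-92864670, minus strand, no match: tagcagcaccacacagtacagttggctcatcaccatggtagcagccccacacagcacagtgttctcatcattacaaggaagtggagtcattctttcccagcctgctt
Runx2 intron, chr17:44809773-44809944, minus strand, with 1 CEBP match: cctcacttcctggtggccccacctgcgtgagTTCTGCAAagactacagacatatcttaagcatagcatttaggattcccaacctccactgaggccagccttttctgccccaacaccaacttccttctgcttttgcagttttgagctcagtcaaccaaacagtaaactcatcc
Runx2 intron, chr17:44827452-44827559, minus strand, with 1 AP-1 match: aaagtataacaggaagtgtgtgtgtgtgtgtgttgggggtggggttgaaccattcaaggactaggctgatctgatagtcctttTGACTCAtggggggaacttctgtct
Runx2 intron, accessible after LPS, chr17:44791524-44791708, minus strand, with 1 AP-1 match: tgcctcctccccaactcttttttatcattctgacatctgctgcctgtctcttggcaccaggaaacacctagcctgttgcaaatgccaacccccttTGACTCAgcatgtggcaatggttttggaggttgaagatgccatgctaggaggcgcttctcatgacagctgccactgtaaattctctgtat
Runx1 intron, higher with LPS, chr16:92612829-92613021, minus strand, with 1 CEBP match: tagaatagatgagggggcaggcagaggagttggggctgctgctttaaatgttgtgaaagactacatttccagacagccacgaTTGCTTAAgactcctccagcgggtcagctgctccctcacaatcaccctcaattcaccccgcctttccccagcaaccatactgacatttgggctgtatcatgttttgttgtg

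Values are tags, the ends of sequenced fragments counted in a peak, divided by a size factor for each library (normalized tags). The untreated libraries held 8392877.5 to 9107770.0 tags, of which 1680263.5 to 3348848.0 lay in merged peaks. After LPS the totals were 2966364.0 to 6556594.5, with 779253.0 to 2121732.5 in peaks. The CD45.2 library of untreated mouse 4 stood apart, with the fewest tags in peaks of its table and 37353 peaks of its own against 95810 and 90324 in the other 2 CD45.2 libraries, and results that rest on it are given with and without it. A promoter peak was listed for 6 of 7 microglia markers (all but Sall1), untreated and after LPS, with summed tags of 479 to 601 in CD45.1 and 582 to 642 in CD45.2 untreated libraries and of 153 to 207 and 172 to 191 after LPS. No promoter peak was listed for the monocyte, T cell, NK cell, B cell, astrocyte and endothelium markers in either table. Of the neutrophil markers, none had one in untreated mice and S100a8 alone had one after LPS, with 5.7 to 19.3 tags in CD45.1 against 8.8 to 28.5 in CD45.2. In the neuron list Tubb3 and in the oligodendrocyte list Mbp had one, with 4.7 to 15.8 and 37.9 to 43.8 tags in the untreated CD45.1 libraries against 3.3 to 11.2 and 31.0 to 48.3 in the CD45.2 ones. In sorted bulk cells, fewer cells with an open site and less opening per cell cannot be told apart.

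In untreated mice, Runx2 and Runx3 were more accessible in grafted cells, Runx1t1 was accessible in host microglia and close to closed in grafted cells, and Runx1, Cbfb and Cbfa2t3 did not pass the test as whole genes. Of the 81 peaks, 79 passed the filter on low counts and were tested with DESeq2. With a call at adjusted p under 0.01 and over 4-fold, 7 were higher in CD45.1 (1 of Runx1, 2 of Runx2 and 4 of Runx3), where 3.78% of all 59170 tested peaks were called in this direction. A further 5 were higher in CD45.2, all of Runx1t1, against 2.65% of all tested peaks. At adjusted p under 0.05 with no limit on the fold, 17 were higher in CD45.1 (3 of Runx1, 5 of Runx2 and 9 of Runx3) and 7 in CD45.2 (1 of Runx1 and 6 of Runx1t1), against 8.54% and 6.32% of all tested peaks, and 55 did not pass. CD45.1 and CD45.2 libraries had no overlap at 37 of the 79 peaks, where this held for 35.5% of all tested peaks. The median log2 difference was 0.23 over the 79 peaks and 0.0 over all tested peaks.

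The count of 7 called peaks higher in CD45.1 was 3 without the CD45.1 library of mouse 4, 4 without the CD45.1 library of mouse 6, 3 without the CD45.2 library of mouse 5 and 4 with the mouse as a replicate block in the model. The count of 5 higher in CD45.2 was 3 without the CD45.2 library of mouse 5. At adjusted p under 0.05, the 17 peaks were 11 without the CD45.2 library of mouse 5 and the 7 were 4 without that of mouse 6. The peaks whose call held under every alternative that could be fitted numbered 6 of the 12: those of Runx1 at -38.3 kb, Runx2 at +61.8 kb, the proximal start of Runx3, and Runx1t1 at -40.3 kb, in the promoter and at +5.3 kb. Distances are from the peak centre to the nearest annotated start of the gene, negative upstream.

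**Figure D1:**
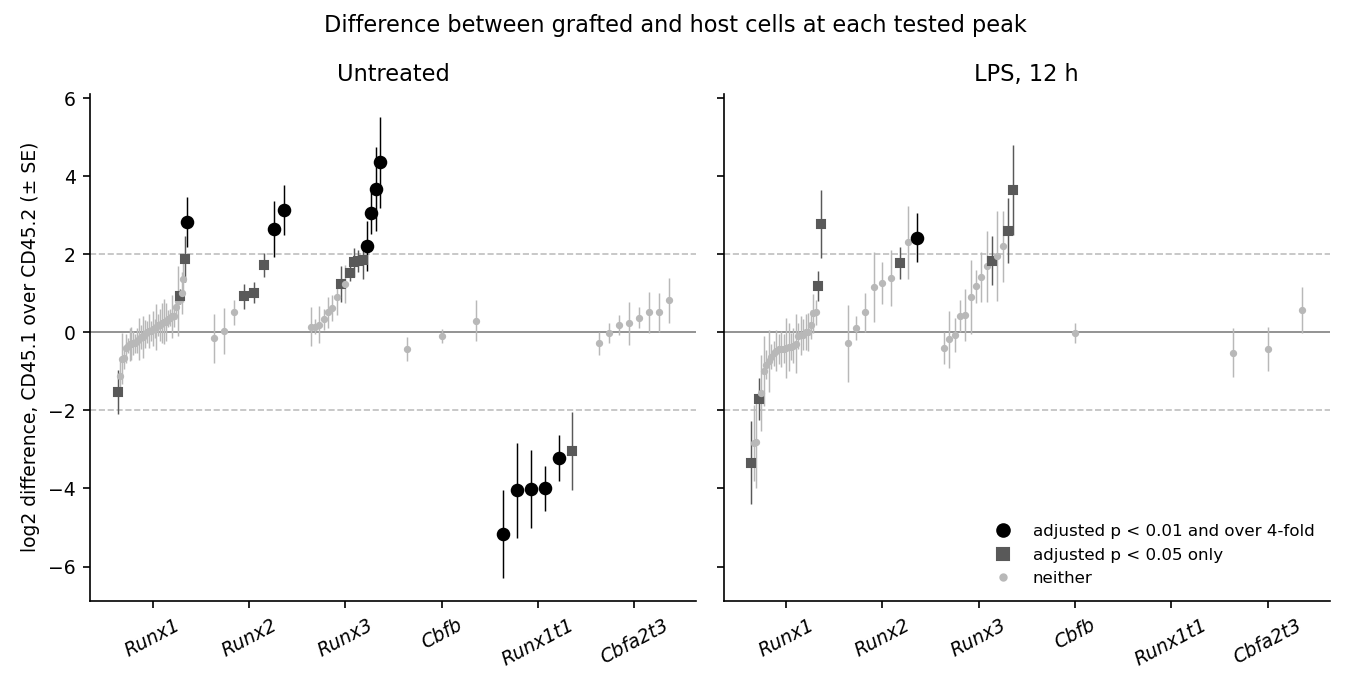
Each point is 1 tested peak, grouped by gene along the x axis, with its log2 difference between CD45.1 and CD45.2 on the y axis and bars of 1 standard error, for untreated mice on the left and after LPS on the right (dashed lines at 4-fold, 3 libraries per population). All 6 Runx1t1 peaks of untreated mice lie below -3, the called peaks of Runx1, Runx2 and Runx3 lie above 2, and after LPS a single peak, of Runx2, is called.

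Runx1 held the most peaks, 38, with 19 annotated as intronic, 2 as promoter and 17 as intergenic. Of the 38, 37 were tested and 33 did not pass at adjusted p under 0.05. Both Runx1 promoters were open in both populations. The proximal promoter (chr16:92697562-92697735) had 109.6, 83.1 and 104.5 normalized tags in CD45.1 against 144, 120.0 and 115 in CD45.2 of mice 4, 5 and 6, a log2 difference of -0.34 ± 0.19 (SE) with adjusted p = 0.3. The distal promoter (chr16:92826242-92826417) had 90.9, 94.9 and 124 against 73.7, 84.4 and 78.7, a log2 difference of 0.38 ± 0.21 with adjusted p = 0.28. At neither promoter did CD45.1 and CD45.2 libraries overlap, as at 13 of the 37 tested Runx1 peaks and 35.5% of all tested peaks. Host microglia had the higher values at the proximal one and grafted cells at the distal one, with neither difference past the test. After LPS, scaled together with the untreated libraries, the distal promoter overlapped, with 46.9, 35.0 and 25.2 in CD45.1 against 39.1, 29.1 and 42.0 in CD45.2. The proximal one had 54.5, 42.8 and 42.0 against 64.3, 61.9 and 82.7.

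A pair of regions upstream of the distal promoter of Runx1 was higher in grafted cells. The called peak at -38.3 kb (chr16:92864564-92864670) had 49.0, 43.8 and 113 tags in CD45.1 against 11.5, 5.0 and 13 in CD45.2. All grafted libraries were above all host libraries, with mouse 6 highest in both populations. The log2 difference was 2.84 ± 0.64 (7.17-fold, adjusted p = 0.00019), and the peak was listed by the peak caller in 3 of 3 CD45.1 and 0 of 3 CD45.2 libraries. The strongest Runx1 peak, about 3 kb farther out at -41.4 kb (chr16:92867631-92867881), had 137, 162 and 202 tags against 81.1, 91.7 and 88.5, again with no overlap. Its log2 difference was 0.92 ± 0.19 (adjusted p = 4.2e-05, and 0.12 with libraries scaled to total tags), and it was listed in all 6 libraries. In the introns, a peak at +80.1 kb was higher in grafted cells (19.9 ± 7.5 against 5.3 ± 0.6, SD, n = 3, log2 difference 1.87 ± 0.59, adjusted p = 0.013, and 0.072 with the replicate block). Without the CD45.1 library of mouse 4 or 6, or the CD45.2 library of mouse 5 or 6, its adjusted p was 0.064, 0.15, 0.13 and 0.062. Another at +63.1 kb was higher in host microglia (6.2 ± 2.7 against 18.4 ± 2.6, -1.52 ± 0.56, adjusted p = 0.049). It passed by little, and without any one library it had adjusted p from 0.063 to 0.28 (0.092 without the CD45.2 library of mouse 4), with 0.14 under the replicate block.

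Runx2 had 8 peaks in untreated mice, all tested, of which 5 were higher in grafted cells and none in host microglia at adjusted p under 0.05. These 5 lay in introns, +24.6 to +120.5 kb from the nearest start, and the 3 peaks within 500 bases of a start in that cluster did not pass. The strongest of those 3 (chr17:44873305-44873484) had 50.8, 37.0 and 42.5 tags in CD45.1 against 27.9, 28.3 and 34.1 in CD45.2, a log2 difference with adjusted p = 0.34. No peak lay at the distal starts of Runx2 (chr17:44951175-44951746) in either table. The nearest, 30811 bases away in untreated mice, was assigned to Supt3, the neighbouring gene.

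The intronic peak of Runx2 at +61.8 kb (chr17:44809773-44809944) had 25.7, 23.7 and 29.4 tags in CD45.1 against 6.6, 3.5 and 0.8 in CD45.2. The grafted libraries lay close together and the host libraries were all lower. Their log2 difference was 3.14 ± 0.64 (8.82-fold, adjusted p = 2.7e-05). The peak at +44.1 kb (chr17:44827452-44827559) had 17.7, 16.4 and 14.2 against 2.5, 3.1 and 2.0, a log2 difference of 2.65 ± 0.72 (6.26-fold, adjusted p = 0.0032, and 0.026 with the replicate block). Without single libraries this call was lost 4 times, with adjusted p of 0.038 and 0.024 without the CD45.1 libraries of mice 4 and 5 and of 0.037 and 0.059 without the CD45.2 libraries of mice 5 and 6. Both peaks were listed in 3 of 3 CD45.1 and 0 of 3 CD45.2 libraries.

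The other 3 Runx2 peaks were listed in all 6 libraries and differed in degree. At +70.6 kb, 65.8, 98.1 and 67.5 tags in CD45.1 stood against 15.6, 22.1 and 30.0 in CD45.2 (1.72 ± 0.31, adjusted p = 1.2e-06). At +24.6 kb, the strongest Runx2 peak, 79.8, 75.8 and 64.3 stood against 45.9, 31.7 and 33.7 (1.02 ± 0.27, adjusted p = 0.0018, and 0.053 with libraries scaled to total tags or 0.062 without the CD45.2 library of mouse 5). At +120.5 kb the values were 49.9, 72.1 and 40.8 against 36.9, 27.9 and 25.2 (0.92 ± 0.32, adjusted p = 0.028, and 0.14 with the replicate block). The last of these was lost without the CD45.1 library of mouse 4 or 5 (0.093 and 0.32) and the CD45.2 library of mouse 5 or 6 (0.19 and 0.23). The groups did not overlap at any of the 3.

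Runx3 had 18 peaks, of which 17 were tested, and all 17 had positive log2 differences, from 0.14 to 4.36. Of these, 9 were higher in grafted cells at adjusted p under 0.05 and 8 did not pass. At both start regions a peak was accessible in grafted cells and at a few tags or 0 in host microglia. At the proximal start the peak chr4:134708322-134708483 had 32.2, 28.3 and 51.2 tags in CD45.1 against 3.3, 4.3 and 5.3 in CD45.2. Every grafted library was more than 5 times above every host library. Their log2 difference was 3.06 ± 0.54 (8.34-fold, adjusted p = 7.9e-07), and the peak was listed in 3 of 3 CD45.1 and 0 of 3 CD45.2 libraries. A second peak of the proximal start cluster (chr4:134708827-134708941, in an exon) had 23.3, 16.4 and 38.7 against 7.4, 13.5 and 11.8, was listed in 2 of 3 CD45.2 libraries and did not pass (1.24 ± 0.48, adjusted p = 0.064).

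At the distal start of Runx3, 2 peaks lie side by side, 8 bases apart, and are not independent. The one nearer to the start (chr4:134676410-134676514), shown above with its tandem RUNX matches, had 14, 9.1 and 16.3 tags in CD45.1 against 0.0, 0.0 and 1.6 in CD45.2. The other (chr4:134676305-134676401) had 11.7, 6.8 and 18 against 0.0, 0.0 and 2.4. Host mouse 6 alone had tags in either peak. Since the CD45.2 libraries together held only 2 and 3 tags, the differences are given as ratios of tags, 20.3 (95% interval 5.27 to 174) and 12.4 (3.85 to 61.9), intervals that cover counting error only. Adjusted p was 0.0026 and 0.0071, and for the second peak it was 0.017 with the replicate block, 0.02 without the CD45.2 library of mouse 4 and 0.012 without the CD45.1 library of mouse 5. Both reached 0.01 or more without the CD45.1 library of mouse 4 (0.017 and 0.035), the CD45.1 library of mouse 6 (0.014 and 0.063) and the CD45.2 library of mouse 5 (0.05 and 0.1).

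Downstream of the starts, Runx3 was also higher in grafted cells, at 1 intronic peak and at 3 peaks beyond the annotated end of the gene (chr4:134733905). The peak at +27.6 kb (chr4:134737826-134738070) had the smallest adjusted p among the members higher in CD45.1, with 117, 118 and 148 tags in CD45.1 against 42.6, 46.1 and 43.0 in CD45.2 (1.53 ± 0.22, adjusted p = 1.4e-09). At +38.6 kb the values were 77.9, 72.6 and 105.1 against 22.9, 20.9 and 27.6 (1.83 ± 0.29, adjusted p = 2.3e-08). In the intron, at +5.9 kb, they were 47.1, 42.0 and 66.4 against 11.5, 13.5 and 17.9 (1.80 ± 0.37, adjusted p = 2.7e-05). At +24.9 kb they were 28.5, 23.3 and 41.4 against 2.5, 9.3 and 11.8 (1.85 ± 0.48, adjusted p = 0.0017). These 4 differences passed the test under every alternative fitted, and in none of them did the populations overlap.

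Upstream of Runx3 the picture was mixed. The strongest Runx3 peak, at -50.6 kb (chr4:134625866-134626008), had 88.6, 105.0 and 127 tags in CD45.1 against 90.9, 93.7 and 101.4 in CD45.2, with overlapping groups (0.15 ± 0.20, adjusted p = 0.77). The called peak at -90.7 kb (chr4:134585804-134585908) had 13.5, 22.4 and 24.5 against 0.8, 6.6 and 4.5 (2.22 ± 0.64, adjusted p = 0.0058). Its call was lost without any one of the 6 libraries, with adjusted p from 0.014 to 0.055 (0.02 without the CD45.2 library of mouse 4), and was 0.019 with the replicate block. At -40.3 kb 25.3 ± 3.4 stood against 10.6 ± 0.9 (SD, n = 3, 1.24 ± 0.45, adjusted p = 0.044, and 0.18 with the replicate block). Leaving out any library but the CD45.2 one of mouse 4 gave this peak adjusted p from 0.11 to 0.23.

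**Figure D2:**
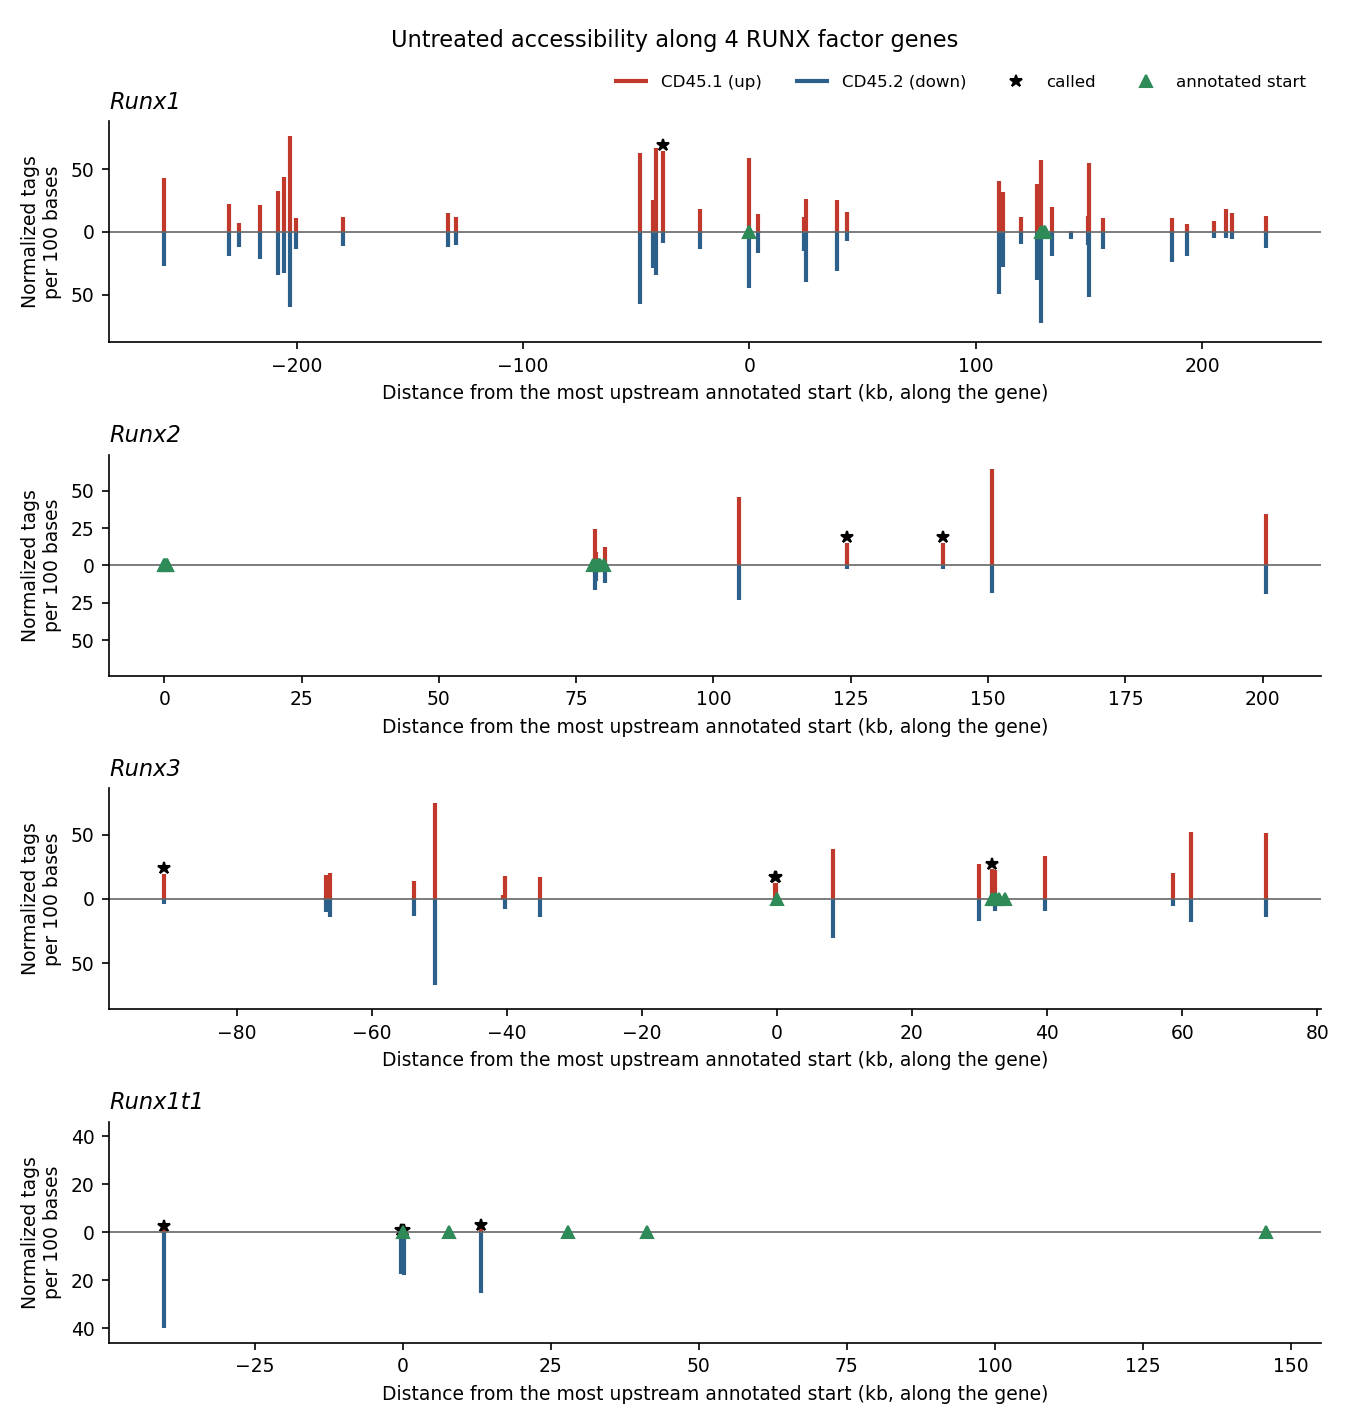
Untreated mean normalized tags per 100 bases of each peak (y axis, CD45.1 upward in red and CD45.2 downward in blue, n = 3 libraries each) against the distance in kb from the most upstream annotated start of Runx1, Runx2, Runx3 and Runx1t1, with stars on called peaks and triangles on annotated starts. Runx1 is open in both populations along its length, the called peaks at the starts of Runx3 are open mainly in grafted cells, no Runx2 peak lies at its distal starts, and the Runx1t1 bars point downward.

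No peak of Cbfb, the gene of the common partner, passed the test. Its promoter (chr8:107694402-107694518) was among the strongest member peaks, with 109.1, 119 and 132 tags in CD45.1 against 138, 131 and 116 in CD45.2, and the groups overlapped (-0.10 ± 0.18, adjusted p = 0.85). The remaining 2 Cbfb peaks, at -12.9 and +0.8 kb, had log2 differences of 0.30 and -0.43 with adjusted p of 0.84 and 0.45.

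Runx1t1, the ETO-family corepressor that is fused to RUNX1 in a form of acute myeloid leukaemia, was the member with the clearest difference in the other direction. It had 6 peaks, and at each of them all 3 host libraries lay above all 3 grafted libraries. Upstream at -40.3 kb (chr4:13630263-13630379) host microglia had 43.4, 45.3 and 51.5 tags and grafted cells 2.8, 3.2 and 2.2, a log2 difference of -4.00 ± 0.58 (16.1-fold, adjusted p = 8.3e-10). In the first intron, at +5.3 kb from an internal start (chr4:13683674-13683790), the host values were 27.9, 29.4 and 32.1 and the grafted values 4.2, 3.7 and 2.2 (-3.22 ± 0.60, 9.31-fold, adjusted p = 3.5e-06). Neither peak was listed in a grafted library and both were listed in 3 of 3 host libraries.

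Around the Runx1t1 start at position 13670583 of chromosome 4 there were 4 peaks within 500 bases, which are not independent of each other. The promoter peak had 26.2, 17.8 and 26.0 tags in CD45.2 and 0.5, 1.8 and 0.5 in CD45.1, where the grafted libraries together held 3 tags (ratio 23.3, 95% interval 7.66 to 116, adjusted p = 0.00011). The peak at +248 bases had 13.9, 19 and 14.6 against 0.9, 1.8 and 0.0 (ratio 16.7, 5.41 to 83.8, adjusted p = 0.001). Without the CD45.1 library of mouse 4 or 5 or the CD45.2 library of mouse 5 the latter had adjusted p of 0.014, 0.016 and 0.02. The peak at -103 bases had 11.5, 9.7 and 11.4 against 1.4, 0.5 and 0.5 (ratio 13.2, 4.29 to 144, adjusted p = 0.0095, 0.021 with the replicate block and 0.049 without the CD45.2 library of mouse 4). Leaving out the CD45.1 libraries of mice 5 and 6 or the CD45.2 libraries of mice 5 and 6 gave 0.056, 0.04, 0.041 and 0.055. The peak over the start itself had 13.1, 7.4 and 11 against 0.0, 3.2 and 0.0 (-3.05 ± 1.00, adjusted p = 0.02, and 0.055 with libraries scaled to total tags). Its adjusted p was 0.14 and 0.091 without the CD45.1 libraries of mice 4 and 6, and 0.14 and 0.071 without the CD45.2 libraries of mice 4 and 5. No peak lay within 500 bases of the internal starts of Runx1t1.

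**Figure D3:**
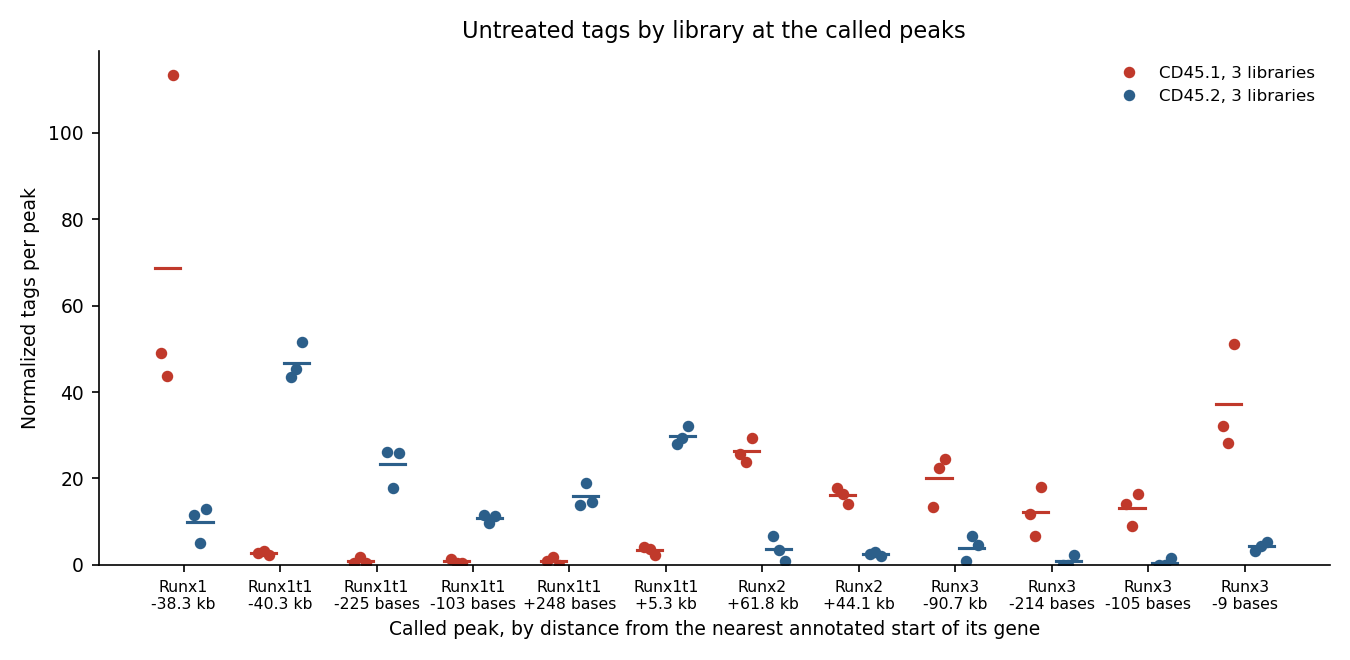
Normalized tags (y axis) in each of the 3 CD45.1 (red) and 3 CD45.2 (blue) untreated libraries at the 12 called peaks, with lines at the group means and peaks named by gene and distance from the nearest annotated start. The red and blue points do not overlap at any of the 12 peaks, Runx1t1 is high in blue and the other genes in red, and the Runx1 peak has 1 library, of mouse 6, far above the other 2.

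Cbfa2t3, the other ETO-family corepressor measured, had 8 peaks, all tested and none past adjusted p under 0.05. The strongest (chr8:125226264-125226440, at -3.3 kb) had 63.9, 68.9 and 68.1 tags in CD45.1 against 42.6, 54.2 and 74.3 in CD45.2 (0.19 ± 0.25, adjusted p = 0.76). At the stronger of its 2 promoter peaks (chr8:125202605-125202769) 34.0, 33.3 and 40.3 stood against 43.4, 40.2 and 46.3 (adjusted p = 0.68). The other (chr8:125202065-125202208), over an annotated start, had 19.6, 11.4 and 23.4 against 3.3, 18.6 and 13.8. Its groups overlapped (0.51 ± 0.53, adjusted p = 0.67). So the 2 corepressor genes differed from each other in that 6 of 6 Runx1t1 peaks and 0 of 8 Cbfa2t3 peaks passed, a difference that was not tested itself.

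Per 100 bases of peak, which allows levels of different genes to be set side by side, the promoters of untreated CD45.1 cells fell in the order Cbfb (mean of 102.4 normalized tags in CD45.1 against 110.0 in CD45.2), the distal and proximal promoters of Runx1 (58.6 and 56.9 in CD45.1, 44.9 and 72.6 in CD45.2), Runx2 (24.1 and 16.7), Runx3 at its proximal start (23 and 2.6) and Cbfa2t3 (21.7 and 26.2). The order was another in CD45.2, where the proximal Runx1 promoter was above the distal one, Cbfa2t3 above Runx1t1 (17.2, and 0.7 in CD45.1) and Runx2, and Runx3 last. For Cbfa2t3 this is the stronger of its 2 promoter peaks. The other, over a start, had 12.6 in CD45.1 and 8.3 in CD45.2, and would place Cbfa2t3 below Runx1t1 and Runx2 in CD45.2. Between neighbouring genes in these orders no test was made. The values of Runx2, Runx3 and the stronger Cbfa2t3 peak in CD45.1 lie within 3 tags of each other.

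Summed over all its peaks, Runx2 had 315.9, 349.7 and 264.5 normalized tags in CD45.1 against 158.7, 144.0 and 142.1 in CD45.2 of untreated mice. The log2 difference was 1.07 ± 0.15 (adjusted p = 6.2e-11, over 16174 gene sums). Runx3 had 671, 643 and 850.0 against 302, 382 and 383 (1.01 ± 0.13, adjusted p = 4.9e-13, but 0.14 with libraries scaled to total tags, where the difference was 0.99). Runx1t1 had 9.8, 14.4 and 5.3 against 134, 132 and 150.0 (-3.80 ± 0.33, 13.9-fold, adjusted p = 1.7e-28). For these 3 genes the populations were apart in every mouse. Runx1 had 1433 ± 112 against 1298 ± 116 (SD, n = 3, 0.14 ± 0.09, adjusted p = 0.43), Cbfb 169 ± 17.6 against 189.6 ± 9.4 (adjusted p = 0.62) and Cbfa2t3 280.4 ± 21.1 against 250.5 ± 32.5 (adjusted p = 0.63). Of all gene sums 7.35% were higher in CD45.1 and 7.46% in CD45.2 at adjusted p under 0.05, where 2 of the 6 members were higher in CD45.1, 1 in CD45.2 and 3 did not pass.

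**Figure D4:**
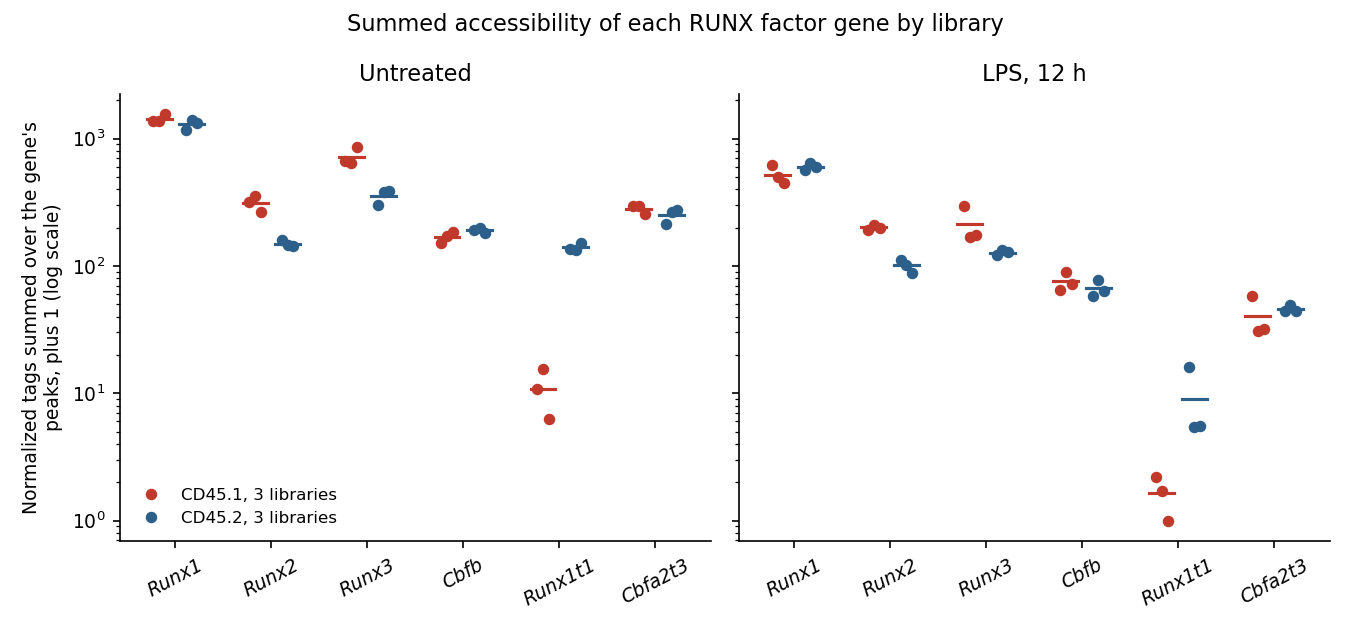
Normalized tags summed over the peaks of each gene, plus 1, on a log axis, in each of 3 CD45.1 (red) and 3 CD45.2 (blue) libraries with lines at the means, for untreated mice on the left and after LPS on the right, which were scaled apart. Runx2 and Runx3 are higher in red in both panels, Runx1t1 is higher in blue, and Runx1, Cbfb and Cbfa2t3 overlap or lie close.

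After LPS challenge the same direction was measured at Runx2 and Runx3, with fewer calls. The LPS libraries also held fewer total tags. Of 72 peaks 56 were tested. A single peak, of Runx2, was called higher in CD45.1 and 0 in CD45.2, where 1.78% and 1.19% of all 49180 tested peaks were called. With edgeR the counts were 4 and 1, and at adjusted p under 0.05 in DESeq2 they were 7 (2 of Runx1, 2 of Runx2 and 3 of Runx3) and 2 (both of Runx1), against 4.08% and 2.38% of all tested peaks. These 7 and 2 were 12 and 4 with edgeR and 2 and 0 with the replicate block, and 1 to 3 and 0 without the CD45.1 library of mouse 1 or 2 or any one CD45.2 library. CD45.1 and CD45.2 libraries were apart at 25 of the 56 peaks, against 27.1% of all tested peaks, and the median log2 difference was -0.04 against -0.01 over all tested peaks.

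The called Runx2 peak lay at +80.0 kb in an intron (chr17:44791524-44791708), a place with no peak in the untreated table. It had 20.2, 15.0 and 20.8 tags in CD45.1 against 2.6, 3.9 and 3.9 in CD45.2 of mice 1, 2 and 3. It differed by 2.43 ± 0.63 on the log2 scale (5.39-fold, adjusted p = 0.004). With the replicate block adjusted p was 0.04, and without any one of the 6 libraries it was 0.015 to 0.065, so the call was lost each time. The Runx2 peak at +70.6 kb, which passed in untreated mice as well, had 44.1, 45.0 and 41.0 against 17.5, 15.3 and 7.4 (1.78 ± 0.40, adjusted p = 0.00053, and 0.054 without the CD45.2 library of mouse 3). The strongest Runx2 peak, at +24.6 kb, had 36.0, 47.0 and 47.6 against 38.5, 40.6 and 40.1, with overlapping groups (0.11 ± 0.30, adjusted p = 0.93).

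At the distal start of Runx3 the LPS peak chr4:134676385-134676509 had 16.6, 10.4 and 3.8 tags in CD45.1 against 0.0, 0.0 and 1.8 in CD45.2. The CD45.2 libraries together held 3 tags, as at this start in untreated mice (ratio 12, 95% interval 3.71 to 60.5, adjusted p = 0.029, and 0.11 with the replicate block). It was 0.13 without the CD45.1 library of mouse 2 and 0.08 and 0.23 without the CD45.2 libraries of mice 1 and 2. At the proximal start 9.3, 5.2 and 5.2 stood against 2.6, 1.7 and 1.8, which did not pass (adjusted p = 0.37). The peaks at +6.0 kb (12.2 ± 4.5 against 2.1 ± 1.9, SD, n = 3, 2.61 ± 0.83, adjusted p = 0.032) and +27.6 kb (18 ± 7.8 against 5.5 ± 3.7, 1.84 ± 0.62, adjusted p = 0.048) were higher in CD45.1. With the replicate block they had adjusted p of 0.1 and 0.2. Without the CD45.1 library of mouse 1 or 2, or the CD45.2 library of mouse 2 or 3, adjusted p rose to between 0.074 and 0.28 at the first and between 0.19 and 0.44 at the second, and it was 0.12 at the first without the CD45.2 library of mouse 1 and 0.059 at the second without the CD45.1 library of mouse 3.

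Of the Runx1 peaks after LPS, the one at -38.3 kb had 50.5, 45.0 and 29.2 tags in CD45.1 against 11.4, 20.5 and 19.9 in CD45.2 (1.19 ± 0.38, adjusted p = 0.032, and 0.18 with the replicate block). The intronic peak at +80.1 kb had 10.9, 11.7 and 11.3 against 0.0, 2.2 and 2.7 (2.78 ± 0.87, adjusted p = 0.027, and 0.099 with the block). Higher in host microglia were the peaks at +24.9 kb, with 6.1, 2.6 and 10.4 against 20.1, 24.4 and 19.9 (-1.70 ± 0.54, adjusted p = 0.03, and 0.13 with the block), and at +56.4 kb, with 0.8, 0.0 and 1.4 against 11.4, 9.6 and 9.5. At the latter the CD45.1 libraries together held 2.5 tags (ratio 12.1, 95% interval 3.92 to 132, adjusted p = 0.033, and 0.1 with the block). At none of these 4 peaks did the populations overlap, but each was lost without most single libraries. Leaving out the CD45.1 library of mouse 1 or 2 or any one CD45.2 library gave adjusted p from 0.089 to 0.29. The peak at -41.4 kb, higher in grafted cells of untreated mice, did not pass at adjusted p under 0.05 after LPS. Scaled together with the untreated libraries, its LPS values overlapped, with 117.8, 61.2 and 49.7 in CD45.1 against 103.4, 83.4 and 63.0 in CD45.2.

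Runx1t1 had 2 peaks after LPS, both too low to be tested, of which 1 matched an untreated peak at 50%. The peak at chr4:13670153-13670301 had 0.0 tags in every CD45.1 library and 7.9, 1.3 and 1.8 in CD45.2, at least 2.7-fold higher when the group at 0 is set to 3 tags. The peak at chr4:13670556-13670686 had 1.2, 0.7 and 0.0 against 7.0, 3.1 and 2.7 (ratio 5.40, 95% interval 1.20 to 49.7). Host values were above grafted values in each of the 3 mice at both peaks.

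As gene sums after LPS, Runx2 had 192, 209 and 197 tags in CD45.1 against 111, 101.4 and 86.9 in CD45.2 (1.02 ± 0.19, adjusted p = 6.3e-06, over 15722 gene sums). Runx3 had 292, 168 and 174 against 120, 132 and 128 (0.75 ± 0.22, adjusted p = 0.016). In the Runx3 sum, mouse 1 was far above the other 2 grafted libraries, and without it the difference was 0.44 with adjusted p = 0.29. It was 0.69 with adjusted p = 0.19 in the model with the replicate block, and adjusted p was 0.11 and 0.079 without the CD45.2 libraries of mice 2 and 3. Runx1 (-0.21 ± 0.16, adjusted p = 0.57), Cbfb (0.16, adjusted p = 0.83) and Cbfa2t3 (-0.17, adjusted p = 0.86) did not pass. Of all gene sums 4.08% were higher in CD45.1 and 2.98% in CD45.2.

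To set LPS against untreated mice, the peaks of the 2 tables were matched at a reciprocal overlap of 50% and fitted together over 12 libraries. Treatment and table go together here, with peaks called, merged and counted apart, so that a response to LPS and a difference between tables cannot be told apart, and LPS peaks were wider (median ratio of widths 1.22 over 39390 matched peaks). Of the members 47 peaks matched and 46 were tested, and 27 untreated and 18 LPS peaks touched no peak of the other table. In CD45.1, 2 were higher and 7 lower with LPS at adjusted p under 0.05 and over 2-fold, against 6.78% and 4.93% of all 39235 tested. In CD45.2, 5 were higher and 3 lower, against 7.69% and 3.69%. Of these, 2 were higher and 2 lower in both populations. The populations share no library, but they come from the same mice and were counted in the same peaks, so these calls are not independent.

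Among the peaks matched at 50%, a Runx1 region at +83.0 kb in an intron, shown above, was higher with LPS in both populations. On the scale of the 12 libraries the untreated libraries had 9.3, 8.0 and 14.7 tags in CD45.1 and 3.8, 3.7 and 4.1 in CD45.2. The LPS libraries had 37.5, 32.1 and 34.3 in CD45.1 and 34.1, 43.6 and 54.7 in CD45.2. All 6 LPS libraries were above all 6 untreated libraries. The log2 difference was 1.72 ± 0.37 in CD45.1 (adjusted p = 7.6e-05) and 3.47 ± 0.44 in CD45.2 (adjusted p = 7.7e-13). Values called per base are log2 differences less the log2 of a peak's width ratio over the median ratio of 1.22. They are thus relative to the usual widening of LPS peaks, and not divided by a peak's own widths alone. At this peak, 1.84 times as wide after LPS, they were 1.13 and 2.88. With its own width ratio alone the CD45.1 value would be under the 2-fold limit. A Runx3 peak at -66.8 kb was the other one higher in both (2.16-fold in CD45.1, adjusted p = 0.015, and 2.95-fold in CD45.2, adjusted p = 0.0015). Its LPS peak was 1.47 times as wide. Per base, again relative to the median ratio, the log2 difference was 0.84 in CD45.1, under the 2-fold limit, and 1.29 in CD45.2. In CD45.1 this was lost with total tags (adjusted p = 0.1) and without the untreated libraries of mouse 4 (0.051) or 5 (0.13) or the LPS library of mouse 1 (0.15). With peaks matched at any overlap, a Runx1 peak at +74.7 kb was also higher with LPS in both populations. The log2 difference was 3.52 ± 0.84 in CD45.1 (adjusted p = 0.0004) and 3.73 ± 0.88 in CD45.2 (adjusted p = 0.00034). These values hold no correction for width, which was 105 bases in untreated mice and 235 after LPS. They cannot be ranked against those per base at +83.0 kb. Scaled within untreated mice, its CD45.1 values were 2.3, 1.8 and 22.9 in mice 4, 5 and 6, against 4.1, 2.7 and 7.7 in CD45.2.

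Lower in both populations were a Cbfa2t3 peak and a Runx3 peak. The Cbfa2t3 peak at +1.1 kb (chr8:125200714-125200958) had 42.0, 37.4 and 31.2 tags in CD45.1 against 23.9, 35.3 and 26.4 in CD45.2 untreated, and 4.7, 1.9 and 1.4 and 3.8, 4.4 and 5.3 after LPS. All LPS libraries were below all untreated ones. LPS over untreated was -3.70 ± 0.66 (adjusted p = 1.2e-06) and -2.49 ± 0.52 (adjusted p = 4.3e-05) on the log2 scale. The LPS peak was 0.51 times as wide, and per base relative to the median ratio of widths the values were -2.44 and -1.23. The Runx3 peak at +27.6 kb had 78.1, 79.0 and 97.1 and 28.3, 31.4 and 29.1 untreated, and 38.1, 25.3 and 16.1 and 13.9, 3.8 and 6.1 after LPS (-1.65 ± 0.30, adjusted p = 1.9e-06, and -2.09 ± 0.44, adjusted p = 5.6e-05). With an LPS peak 0.735 times as wide, this was -0.92 per base in CD45.1 and -1.36 in CD45.2, relative to the median ratio of widths. The CD45.1 value is under the 2-fold limit on that scale, but would not be with the peak's own width ratio alone.

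Further differences passed in 1 population. In CD45.2, the Runx1 peaks at -38.3 kb (2.05 ± 0.45, adjusted p = 0.00014, against 0.43 ± 0.35, adjusted p = 0.41, in CD45.1) and -258.4 kb (1.72 ± 0.27, adjusted p = 1e-08, against 0.56 ± 0.27) and the Runx2 peak at +24.6 kb (1.25 ± 0.26, adjusted p = 4.5e-05, against 0.37 ± 0.24) were higher with LPS. A Cbfa2t3 peak at +12.6 kb was lower (-1.52 ± 0.38, adjusted p = 0.00088, against -0.89 ± 0.35). The Runx1 peak at -258.4 kb was 1.74 times as wide after LPS. With this width ratio alone its CD45.2 value would be under the 2-fold limit. In CD45.1, the strongest Cbfa2t3 peak was lower (-1.55 ± 0.36, adjusted p = 0.00039), as were Runx1 peaks at +56.4, -16.7, +24.9 and -48.2 kb (log2 differences from -2.64 to -1.02, adjusted p from 0.011 to 0.028). In CD45.2 the same Cbfa2t3 peak (adjusted p = 0.025) and the Runx1 peak at -48.2 kb (adjusted p = 0.023) passed the p limit and stopped short of the fold limit. So did the distal promoter of Runx1 in CD45.1 (-0.93 ± 0.27, adjusted p = 0.0057, against 0.17 in CD45.2). The strongest Runx3 peak, at -50.6 kb, did so in CD45.1 as well (-0.79 ± 0.29, adjusted p = 0.034, against 0.58 in CD45.2). Neither was followed under the alternatives. The 4 Runx1 peaks were lost in CD45.1 with libraries scaled to total tags and without the CD45.1 LPS library of mouse 2 (adjusted p of 0.1, 0.1, 0.12 and 0.07). Without the LPS library of mouse 3 the peaks at +56.4, -16.7 and -48.2 kb had 0.079, 0.11 and 0.11. Without that of mouse 1 those at +56.4 and +24.9 kb had 0.1 and 0.067. The untreated libraries of mice 4 and 5 mattered for +56.4 kb (0.072 and 0.06) and -16.7 kb (0.052 and 0.078). The count of 7 was 3 and 4 without the LPS libraries of mice 2 and 3, and the 3 lower peaks of CD45.2 were 5 without the untreated CD45.2 library of mouse 4.

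Whether the populations differed in their response was tested by the interaction of population and treatment, which 0.245% of all tested matched peaks passed at adjusted p under 0.05, or 0.345% of the 27825 for which DESeq2 gave an adjusted p. The latter was given for 31 of the 46 member peaks and withheld it for 15 with low counts. Of the 31, 0 passed (0 with edgeR as well), and 7 of the 46 had an unadjusted p under 0.05 (6 of Runx1 and 1 of Runx2), against 5.33% of all tested. The lowest adjusted p was 0.25, at the Runx1 peaks at +83.0 kb (-1.75 ± 0.57) and -258.4 kb (-1.16 ± 0.38). At -38.3 kb the interaction was -1.63 ± 0.57 with adjusted p = 0.36. At the strongest Runx1 peak, -41.4 kb, it was -0.96 ± 0.36 with adjusted p = 0.48, and -1.43 ± 0.35 with adjusted p = 0.023 without the CD45.1 LPS library of mouse 1. With all libraries, a difference between the populations in their response was not detectable at any of the 31.

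**Figure D5:**
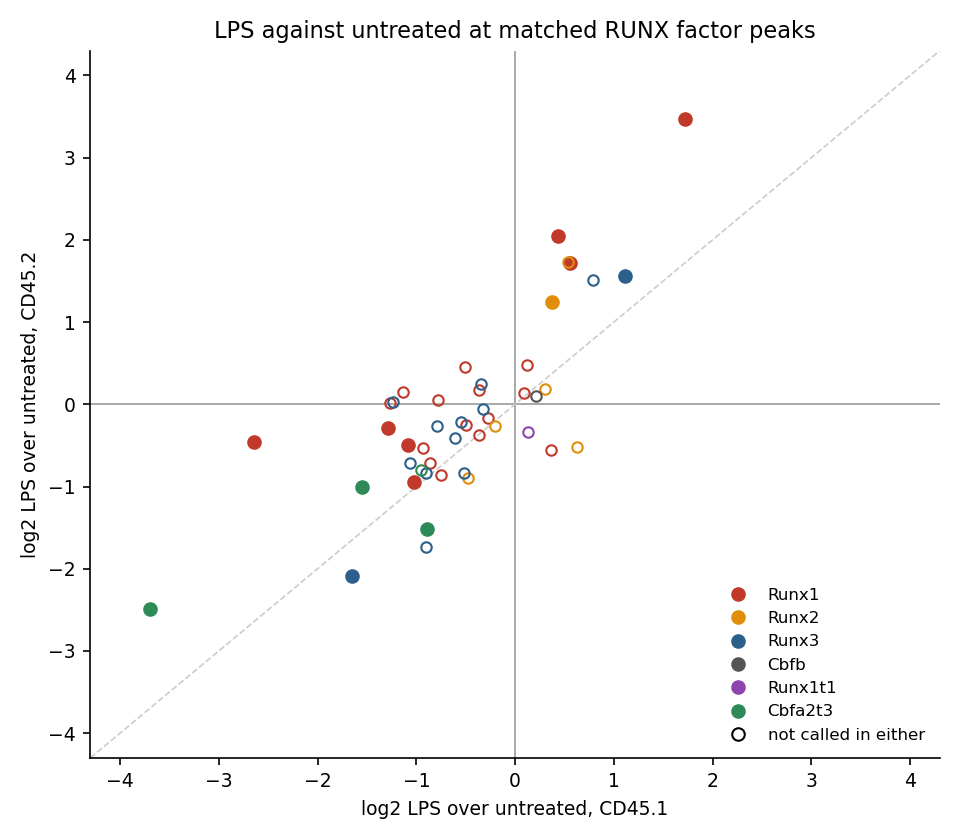
Log2 difference of LPS over untreated in CD45.1 (x axis) and CD45.2 (y axis) at the 46 tested matched member peaks, colored by gene, filled where either population passed adjusted p under 0.05 and over 2-fold, with a dashed line of equal difference. The Runx1 peak at +83.0 kb lies at the top right (1.72 and 3.47). The Cbfa2t3 peak at +1.1 kb lies at the bottom left (-3.70 and -2.49). Half-way values of the plotted symbols are below 0, with a median of -0.52 on the x axis and -0.26 on the y axis. Over all 39235 tested matched peaks the medians are 0.0 for grafted cells and -0.01 for host microglia.

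The peaks of proteins that work with RUNX and ETO-family factors were summed for a list of 34 gene symbols, from corepressors (Tle family, Sin3a, Ncor1, histone deacetylases) and acetyltransferases to hematopoietic factors. In untreated mice 32 were tested, 1 was higher in CD45.1, 2 were higher in CD45.2 and 29 did not pass, against 7.35% and 7.46% of all gene sums, and the median log2 difference was 0.03, against 0.0 over all gene sums. Gata2, a zinc-finger factor of stem and mast cells, had 68.9, 75.0 and 38.5 tags in CD45.1 against 161, 222 and 160.0 in CD45.2 (-1.58 ± 0.23, adjusted p = 1.7e-10). The groups did not overlap, and Gata2 was also lower in CD45.1 after LPS, with 23.3, 16.6 and 21.1 against 61.6, 67.7 and 59.8 (-1.64 ± 0.32, adjusted p = 1.7e-05), the only one of 31 tested there, against 2.98% of all gene sums (median -0.07). Tal1, a helix-loop-helix factor of blood progenitors, was higher in CD45.2 of untreated mice (-0.44 ± 0.12, adjusted p = 0.0025), and Hipk2, a kinase that phosphorylates RUNX1, in CD45.1 (0.46 ± 0.14, adjusted p = 0.008). Hipk2 was lost with the replicate block, with total tags and without the CD45.1 library of mouse 4 or 5 or the CD45.2 library of mouse 5 or 6, where 0 of the list were higher in CD45.1. After LPS 0 were higher in CD45.1, and 1 without the CD45.2 library of mouse 1.

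Of 16 genes known as RUNX targets in other cells, 11 were tested in untreated mice, 3 were higher in CD45.1 and none in CD45.2, against 7.35% and 7.46% of all gene sums, with a median of 0.02 (with edgeR 1 was higher in CD45.2). Il4 had a single peak with 45.5, 31.5 and 44.3 tags in CD45.1 against 6.5, 4.8 and 5.4 in CD45.2 (2.94 ± 0.50, adjusted p = 1e-07), Mmp13 had 40.8, 46.8 and 44.3 against 17, 11.1 and 19.9 (1.49 ± 0.37, adjusted p = 0.00071), and Itgal, an integrin chain, had 64.9 ± 10.9 against 34.3 ± 7.5 (SD, n = 3, 0.93 ± 0.29, adjusted p = 0.011). After LPS 1 of 12 tested was higher in CD45.1, against 4.08% of all gene sums, Spp1 (osteopontin), with 133, 154 and 99.4 against 49.3, 33.2 and 29.8 (1.84 ± 0.27, adjusted p = 6.2e-10), and the median was -0.02. Spp1 had 94.0 ± 4.7 against 65.9 ± 7.6 in untreated mice (adjusted p = 0.082).

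Letters of the 4 motifs were counted in the 200 bases around the centre of each peak. The RUNX letters TGTGGTT were in 5 of 81 untreated member peaks (6.17%), against 5.65% of all 60288, and in 4 of 18 Runx3 peaks (22.2%), of which the 2 side by side at the distal start share the same matches. After LPS they were in 5 of 72 (6.94%), against 5.83% of all. The PU.1 letters GAGGAAG were in 21 of 81 (25.9%), against 21.8% of all, and in 4 of 6 Runx1t1 peaks, where windows around the start overlap and can share a match. TGANTCA, of AP-1, was in 3 of 81 untreated (3.70%, against 8.12%) and 14 of 72 LPS peaks (19.4%, against 13.4%), 5 of them among 14 Runx2 peaks. TTGCNNAA, of CEBP factors, was in 8 of 81 (9.88%, against 9.82%) and 7 of 72 (9.72%, against 12.2%).

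The genes whose summed accessibility followed each member most closely over the 12 libraries, after the mean of each table was taken off, were found among 12323 genes by Pearson's r. They were Xdh (0.989), Hs3st1 (0.988) and Serpinb1c (0.983) for Runx2, Kif1a (0.961), Trim25 (0.960) and Gstm1 (0.959) for Runx3, and Ucp3 (0.966), Arhgdia (0.965) and Ppp1r9b (0.958) for Runx1. For Cbfa2t3 they were Pde6d (0.923), Serpinf1 (0.921) and Fcgrt (0.920), and for Cbfb Zscan25 (0.857), Mb21d1 (0.852) and Slc25a16 (0.832). Runx1t1 was below the minimum mean of 20 tags for this comparison. The 12 points share their populations, mice and depths, and the values describe likeness alone.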

How the data were processed

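The authors sequenced ATAC-seq libraries of sorted CD45.1 and CD45.2 brain macrophages. Their processing notes name bcl2fastq 2.17.1.14, Bowtie2, Picard 1.108, HOMER and build mm9. HOMER called peaks per library, and the deposited peak score was used only to see which libraries list a peak. Peaks were merged within a treatment, and unnormalized tags were counted in them. These deposited values are estimated counts, since 49.1% (untreated) and 47.7% (LPS) were not whole, and were rounded to whole tags. Coordinates fitted NCBIM37.

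Peaks and gene sums that reached more than 10 tags in some library were fitted per table with DESeq2 1.42.0 in R 4.3.3 (Wald test, median-of-ratios size factors, Benjamini-Hochberg over all features). The study used DESeq2 as well, on peaks filtered by IDR. edgeR 4.0.16, total-tag scaling, other filters, left-out libraries and the mouse as a replicate block were alternatives. Scripts used Python 3.11.15 and were tested on simulated data.

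Per the design text of the series, both populations with 1 number came from the same mouse, so the numbers pair the libraries. Correlations of same-mouse deviations were 0.08, 0.08 and 0.09 (untreated) and -0.07, 0.06 and 0.15 (LPS). Between different mice they were -0.1 to 0.0 (untreated) and -0.16 to 0.12 (LPS), so that after LPS the 2 kinds of pairs overlapped. No 2 libraries were duplicates.

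Members, lists and motifs were chosen with earlier results of these data known. Named peaks were all those called, the strongest and those nearest to the starts of each member, and the 3 with the smallest adjusted p per direction and table. Other peaks that passed at adjusted p under 0.05 were added after their values were seen. The 3 most alike genes are given per member. The sequences of other accessible regions are not reported here.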

Additional observations from a re-analysis of the deposited data

How the results depend on the processing

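Signs were followed under the alternatives for member gene sums, member peaks that were called or passed at adjusted p under 0.05, and called LPS responses. None of these changed sign. Other reported differences, such as promoter peaks that did not pass, partner and target genes and interactions, were not followed for sign. With the mouse as a replicate block, untreated called peaks higher in CD45.1 were 4 (7 without the block), LPS called peaks higher in CD45.1 were 0 (1), untreated partner genes higher in CD45.1 were 0 (1), and the LPS Runx3 sum was 0.69. Single peaks whose call the block changed are given beside their values, and it changed no other call among the results fitted with it. The LPS responses within a population were not fitted with the block. With a mean count of at least 20, called peaks were 2 and 1 (7 and 5) in untreated mice and 0 after LPS, since fewer peaks were tested. With edgeR, LPS called peaks were 4 higher in CD45.1 and 1 in CD45.2 (1 and 0), LPS target genes higher in CD45.1 were 2 (1), untreated target genes higher in CD45.2 were 1 (0), and peaks lower with LPS in CD45.2 were 5 (3). With libraries scaled to total tags, untreated partner genes were 0 and 1 (1 and 2), the untreated Runx3 sum was 0.99 with adjusted p = 0.14, and peaks of CD45.1 were 1 higher and 3 lower with LPS (2 and 7). That scaling moved the median of all LPS peaks to 0.14 and of all CD45.2 LPS responses to -0.15. Matched at any overlap, 6 peaks were lower with LPS in CD45.2 (3).

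Leaving out 1 library gave 3 to 6 and 3 to 4 untreated called peaks, 0 to 0 LPS called peaks higher in CD45.1, 0 to 1 partner genes higher in CD45.1 in either table, an LPS Runx3 sum of 0.44 to 0.89, 0 to 1 interactions, 1 to 2 peaks higher and 3 to 10 lower with LPS in CD45.1, and 3 to 5 lower in CD45.2. The 8 LPS responses named in CD45.2 kept their calls under all 15 alternatives, as did 4 of 9 in CD45.1. The replicate block was not among the 15. Those that left out a library of the other population kept every library compared, so they could change little. The LPS libraries held fewer total tags, and 56 of 72 LPS member peaks passed the filter on low counts. Whether depth accounts for the fewer calls after LPS was not tested.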
